A study of Mus musculus with 2 samples.

Results

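The 8 genes described here encode nuclear regulators of red cell formation and a pair of Trim proteins made in erythroid cells: Klf1, Nfe2, Hemgn, Trim10, Trim58, Bcl11a, Myb and Ikzf1. Each gene was found by name, through every probeset of the deposited table that the platform annotation assigns to one of these symbols alone. This gave 102 probesets, among 270105 probesets that name 1 gene and 21947 genes in all. The cells came from the mouse embryonic stem cell line Bry-GFP, in which GFP reports the mesoderm gene Brachyury. FLK1-positive mesoderm was taken from embryoid bodies on day 3 and cultured with 300 nM of compound B, an inhibitor of the histone demethylase LSD1 named in the labels by this code alone, or with the solvent DMSO. On culture day 2 the CD41-positive cells of each culture were sorted, and their RNA was measured on 1 Affymetrix array per condition. The labels call the sorted cells hemogenic endothelium, endothelium that gives rise to blood. The labels give no difference in genotype between the arrays, and both rest on this 1 cell line. With 1 array per condition there is no replicate, no error between samples and no p-value, and every difference describes these 2 arrays.

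Red cell formation is steered by a small set of DNA-binding proteins. Klf1 is a zinc finger activator that binds CACCC boxes and turns on beta globin, membrane and haem genes. Nfe2 encodes the large subunit of NF-E2, which pairs with small Maf proteins, binds the globin locus control region and is needed for platelet release. Hemgn encodes hemogen, a nuclear protein of blood cells, and Trim10 and Trim58 encode RING proteins of the erythroid lineage, Trim58 a ubiquitin ligase that acts on the motor protein dynein. Bcl11a, Myb and Ikzf1 have wider roles: Bcl11a represses embryonic and fetal globin genes and is needed for lymphoid cells, Myb keeps definitive progenitors dividing, and Ikzf1, or Ikaros, guides lymphoid cells and globin switching.

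The stretches before the transcript starts of the 3 genes with the largest differences, Trim10, Hemgn and Klf1, and of Trim58 are shown because each holds the letters GATAA, which GATA factors can bind. They come from RefSeq on build GRCm38.p6 and run 5′ to 3′ on the gene's strand. Capitals mark GATAA and CACCC, read on either strand (TTATC and GGGTG). The Trim10 stretch stops where the gene record begins.
Klf1, chr8:84901732-84901981, plus strand: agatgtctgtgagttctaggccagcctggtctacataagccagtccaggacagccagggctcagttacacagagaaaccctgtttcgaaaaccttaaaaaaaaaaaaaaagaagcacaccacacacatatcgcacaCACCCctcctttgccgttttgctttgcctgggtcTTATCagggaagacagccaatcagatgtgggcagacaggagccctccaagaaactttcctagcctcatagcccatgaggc
Hemgn, chr4:46404184-46404433, minus strand: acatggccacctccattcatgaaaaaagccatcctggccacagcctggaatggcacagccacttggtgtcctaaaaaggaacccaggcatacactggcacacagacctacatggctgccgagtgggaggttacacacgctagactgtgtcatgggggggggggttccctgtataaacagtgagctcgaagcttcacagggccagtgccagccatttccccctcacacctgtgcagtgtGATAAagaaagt
Trim10, chr17:36869324-36869495, plus strand: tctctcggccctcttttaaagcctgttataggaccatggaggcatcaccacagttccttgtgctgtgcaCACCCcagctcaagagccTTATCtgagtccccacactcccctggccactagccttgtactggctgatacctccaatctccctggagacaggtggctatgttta
Trim58, chr11:58640215-58640464, plus strand: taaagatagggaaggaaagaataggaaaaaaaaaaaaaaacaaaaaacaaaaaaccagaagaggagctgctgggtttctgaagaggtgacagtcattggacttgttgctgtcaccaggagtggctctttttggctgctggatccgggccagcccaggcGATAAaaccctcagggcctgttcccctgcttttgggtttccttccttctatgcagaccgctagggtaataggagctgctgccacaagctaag

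The promoter table held 7 of the 8 genes, with 2 starts for Ikzf1, and the 250 bases before each start were searched on both strands for 4 motifs. GATAA was found for 4 of the 7 genes, the ones shown, and in 22.6% of all 32851 promoters of the table. It lay with its first base 12 bases before the start of Hemgn, 80 before Klf1, 92 before Trim58 and 163 before Trim10. CACCC, the core of the box that Klf1 binds, was found for 5 genes, Klf1, Trim10, Bcl11a, Myb and Ikzf1, and in 52.0% of all promoters. TGANTCA, a core shared by NF-E2 and AP-1 sites, was found for Trim10 alone and in 6.75% of all promoters. This match, 56 bases before the start, and the CACCC 71 bases before it lie inside the Trim10 gene record. The searched bases of Bcl11a and Ikzf1 lie wholly inside their gene records. AAATC, which holds the AATC core of Gfi1 sites, was found for Myb and Ikzf1 and in 32.7% of all promoters. No matches of different motifs overlapped in these genes. A match describes letters and is no sign of binding.

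All values are log2 intensities. A probeset was called bright if the higher of its 2 values reached the median of the table, 3.17, and a gene was counted as measured with at least 4 bright probesets. Its level on an array is the median of its bright probesets, and its difference is the median of their differences, inhibitor minus DMSO, so it can depart from the gap between the 2 levels. Of the 8 genes 7 were measured, and Trim58 was not. A gene was past the size rule if its difference was at least 1, which is 2-fold, with at least 75% of its bright probesets in that direction. Trim10, Hemgn and Klf1 were lower past the rule in the inhibitor array, 3 of the 7, where 0.563% of the 15087 measured genes were. None of the 7 was higher past it, where 1.72% of measured genes were. All 7 differences lay below 0, as did 40.9% of those of all measured genes, and their median was -0.76 against 0.06 over all measured genes. Ranked from the lowest difference among the 15087 genes, Trim10 was at place 2, Hemgn at 25, Klf1 at 67, Ikzf1 at 252, Nfe2 at 877, Bcl11a at 1011 and Myb at 1337. At a 1.5-fold threshold Ikzf1 joined the 3, where 2.66% of measured genes were lower. The 8 genes were chosen with earlier results of these data known, so these shares and places are descriptive and test nothing.

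**Figure D1:**
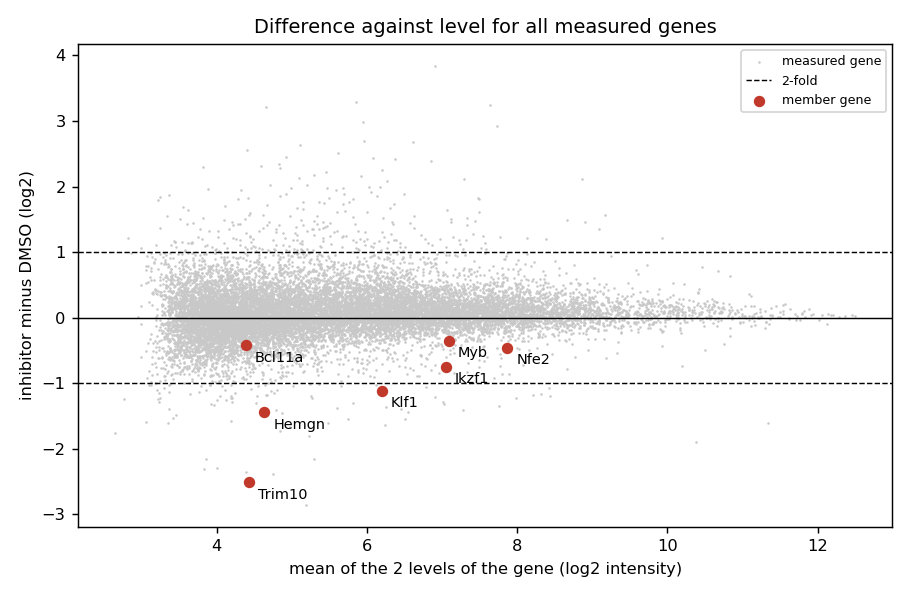
Difference between the inhibitor and DMSO arrays (log2, y axis) against the mean of the 2 levels (log2 intensity, x axis) for the 15087 measured genes in grey and the 7 measured genes of this set in red, with dashed lines at 2-fold. Trim10 (-2.51), Hemgn (-1.45) and Klf1 (-1.12) lie below the lower dashed line, and the other 4 lie between it and 0.

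Klf1 had a level of 5.64 in the inhibitor array and 6.76 in the DMSO array, a difference of -1.12 or 2.17-fold (SD 1.32 over 5 bright probesets). The 2 brightest probesets of Klf1 gave 6.61 and 5.77 in the inhibitor array, against 8.51 and 8.99 in the DMSO array. Their differences were -1.90 and -3.23. The third was at 5.64 with the inhibitor and 6.76 with DMSO, and the dimmer ones differed by 0.22 and -0.55. Of the 5, 4 were lower in the inhibitor array, and the SD over them exceeded the gene's difference. When the dim probeset of Klf1 was kept as well, the difference was -0.90, and with dim values lifted to the table's median -0.83, so Klf1 was then no longer past the 2-fold threshold.

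Nfe2, the globin and platelet regulator, had a level of 7.53 in the inhibitor array and 8.21 in the DMSO array. Its difference was -0.46 or 1.37-fold (SD 0.49 over 4 bright probesets) and did not pass the size rule. The probesets of Nfe2 read 9.12, 7.89, 7.17 and 4.40 with the inhibitor, against 9.78, 9.002, 7.43 and 4.40 with DMSO. The 3 brighter ones were thus lower with the inhibitor, and the fourth had the same value on both arrays, as 222 of the 208583 bright probesets with 1 gene did. The difference of Nfe2 was -0.13 with dim values lifted to the table's median.

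Hemgn had a level of 4.003 in the inhibitor array and 5.26 in the DMSO array, and its difference was -1.45 or 2.73-fold (SD 1.11 over 9 bright probesets). The bright probesets of Hemgn ran over 1.21 to 4.97 with the inhibitor and over 4.28 to 7.19 with DMSO. Of the 9, 8 were lower with the inhibitor, each by at least 2-fold, and 1 was higher by 0.42. The brightest read 4.91 with the inhibitor and 7.19 with DMSO. In the inhibitor array 3 of the 9 lay below the table's median, so these 3 counted as bright through the DMSO array alone. With probesets chosen by the mean of their 2 values in place of the higher, a setting added after the data were seen, Hemgn was at -1.40 over 8 probesets.

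**Figure D2:**
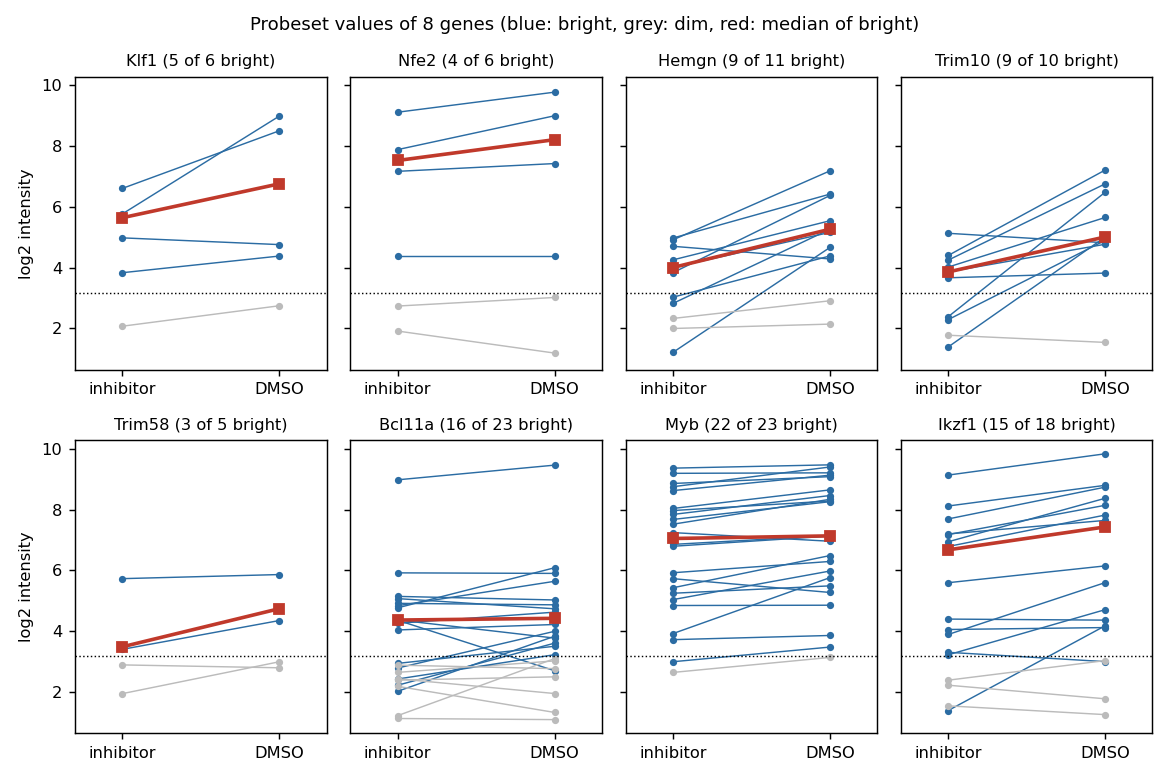
Value of each probeset (log2 intensity, y axis) in the inhibitor array (left) and the DMSO array (right) for the 8 genes, with bright probesets in blue, dim ones in grey, the median of the bright ones in red and the table's median as a dotted line. For Hemgn and Trim10, 8 of 9 blue lines end higher on the DMSO side, and for Myb 20 of 22 do, by smaller amounts.

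Trim10, first described as a RING protein of blood cells, had the lowest difference of the 8 genes, -2.51 or 5.71-fold (SD 1.52 over 9 bright probesets). Its levels were 3.86 in the inhibitor array and 5.01 in the DMSO array, a gap of -1.15 that is smaller than the median of the probeset differences. The mean over its probesets was -2.01. The brightest probeset of Trim10 read 4.40 with the inhibitor and 7.22 with DMSO, and the second 4.25 with the inhibitor and 6.76 with DMSO. Of the 9 bright probesets, 6 were at least 2-fold lower with the inhibitor, the furthest by -4.10 (2.38 with the inhibitor, 6.49 with DMSO). Another 2 were lower by less, at -0.91 and -0.16, and 1 was higher by 0.31. The size thus depended on which probesets were read: the odd-ranked ones by identifier gave -2.61 over 5, and the even-ranked ones gave -0.53 over 4, which is short of 2-fold. In the inhibitor array 3 of the 9 lay below the table's median, and with values below that median raised to it the difference was -1.68.

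Trim58 had 5 probesets, of which 3 were bright, too few to count as measured. These 3 read 5.72, 3.48 and 3.39 in the inhibitor array, against 5.86, 4.73 and 4.34 in the DMSO array. All 3 were lower with the inhibitor, the brightest by 0.13 and the dimmer ones by 1.26 and 0.95. The median of the 3 was -0.95, and the brightest alone gave -0.13.

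**Figure D3:**
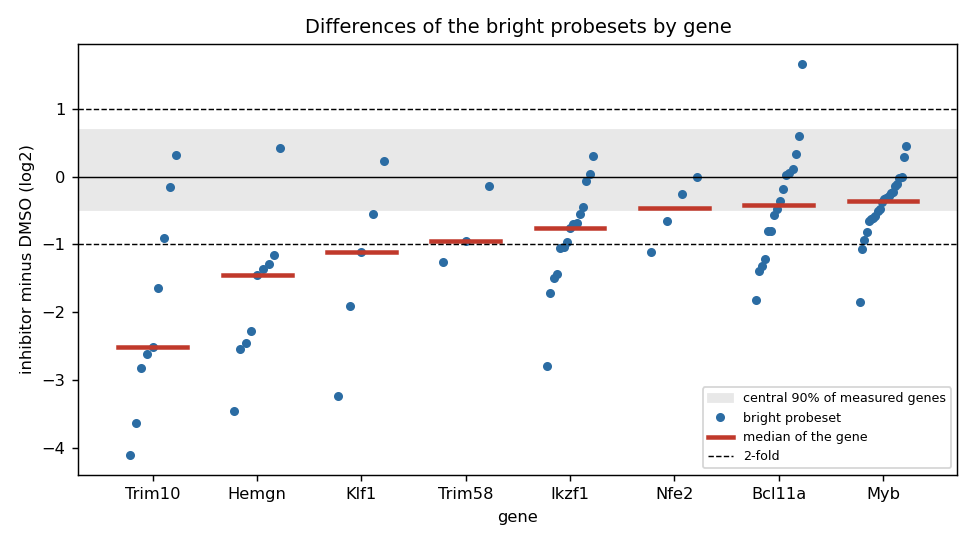
Difference of each bright probeset (inhibitor minus DMSO, log2, y axis) by gene, with the gene's median as a red bar, the central 90% of measured genes (-0.50 to 0.68) in grey and dashed lines at 2-fold. The medians run from -2.51 for Trim10 to -0.35 for Myb, and 1 probeset, of Bcl11a, lies above 1.

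Ikzf1 had a level of 6.67 in the inhibitor array and 7.43 in the DMSO array, and its difference of -0.76 or 1.69-fold (SD 0.77 over 15 bright probesets) did not reach 2-fold. The brightest probeset of Ikzf1 read 9.13 with the inhibitor and 9.84 with DMSO. Of the 15, 13 were lower with the inhibitor. Among the 10 that reached the 75th percentile of the table, 4.84, all 10 were lower, by 0.45 to 1.71. The even-ranked probesets of Ikzf1 gave -1.43 and passed the size rule, whereas the odd-ranked ones gave -0.50. Ikzf1 makes several splice forms, and the files do not place the probesets on exons, so no form could be told apart.

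Myb had levels of 7.04 in the inhibitor array and 7.13 in the DMSO array, a gap of -0.09. Its difference, the median of the probeset differences, was larger in size, at -0.35 or 1.28-fold (SD 0.48 over 22 bright probesets). The differences of Myb were small and mostly one way: 20 of the 22 were lower with the inhibitor, 2 of them by at least 2-fold. The brightest probeset read 9.36 with the inhibitor and 9.47 with DMSO. Over the alternatives the difference of Myb ran from -0.43 to -0.31.

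Bcl11a had levels of 4.36 in the inhibitor array and 4.42 in the DMSO array. Its difference of -0.43 (SD 0.87 over 16 bright probesets) turned to 0.02 over the 7 probesets that reached the table's 75th percentile and to 0 with dim values lifted to the table's median. The probesets of Bcl11a disagreed among themselves, with 10 lower and 6 higher, from -1.81 to 1.66. The brightest read 8.98 with the inhibitor and 9.46 with DMSO, and the second brightest 5.91 with the inhibitor and 5.90 with DMSO. No direction is given for Bcl11a.

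Over the 8 genes together, 69 of 83 bright probesets were lower in the inhibitor array (83.1%), against 45.2% of all bright probesets with 1 gene. Of the 83, 31 were at least 2-fold lower, where 6.04% of all bright probesets were, and 1 was at least 2-fold higher, where 8.69% were. Probesets of a gene share its RNA and the 2 arrays, and are not replicates. Of the 83, 13 lay below the table's median in the inhibitor array alone and 2 in the DMSO array alone. With probesets chosen by the mean of their 2 values, 64 of 77 were lower, against 45.0% of all, and 27 were at least 2-fold lower, against 4.59% of all.

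The Trim family served as the setting for Trim10. The annotation names 65 Trim genes, and 46 were measured, with a median difference of 0.09. Trim10 was the single one past the size rule, lower, where 0.563% of all measured genes were. None was higher past it, where 1.72% were. The other 45 lay between -0.56 and 0.94, with 16 below 0, where 40.9% of all measured genes were. The ends of that range were Trim69 at -0.56, with levels of 3.55 in the inhibitor array and 3.51 in the DMSO array, and Trim26 at 0.94, with levels of 5.58 in the inhibitor array and 5.23 in the DMSO array. For Trim69 the gap between the 2 levels is opposite in sign to its difference, though 5 of its 6 bright probesets were lower. No direction is given for Trim69. Trim25, a ligase that acts on the RNA sensor RIG-I, differed by 0.72 in 12 of 13 probesets.

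**Figure D4:**
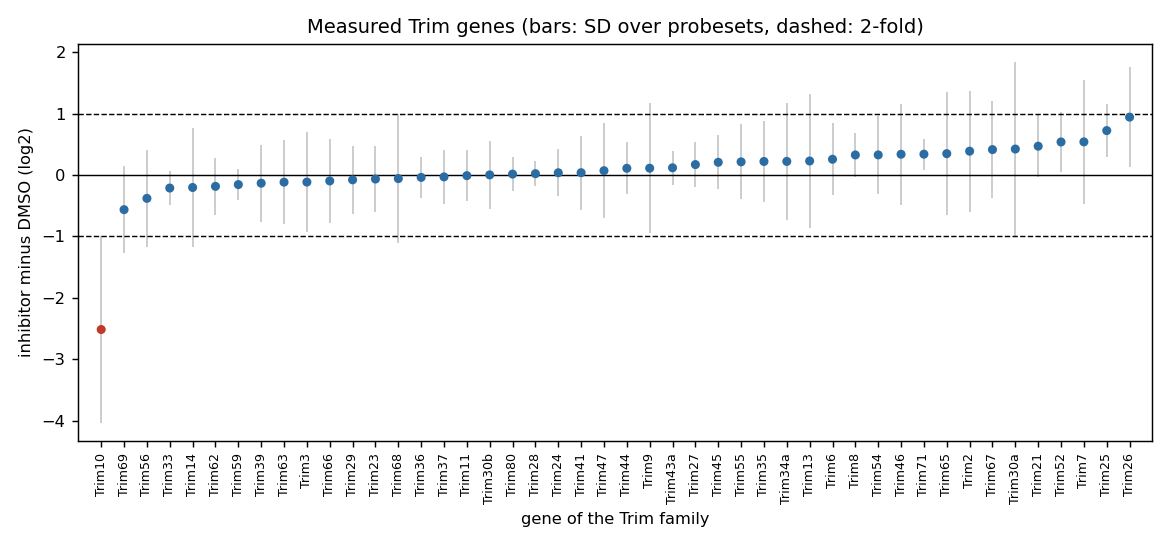
Difference (inhibitor minus DMSO, log2, y axis) of the 46 measured Trim genes in rising order, with bars for the SD over the probesets of a gene and dashed lines at 2-fold. Trim10, in red, lies at -2.51, and the other 45 lie between -0.56 and 0.94.

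Trim10 sits in a cluster of Trim genes beside the major histocompatibility complex. Of the 5 other Trim genes within 1 megabase of it in the RefSeq order, Trim26 was at 0.94 with 14 of 17 probesets higher and Trim39 by -0.13 over 12. Trim15, Trim31 and Trim40 had only 2 or 3 bright probesets each and were not counted as measured, with differences of 1.21 for Trim15, -0.07 for Trim31 and 1.66 for Trim40. In the DMSO array the levels of Trim15 and Trim40, 2.37 and 2.35, lay below the table's median. With the inhibitor they were 3.63 and 4.02. Some of their probesets thus counted as bright through the inhibitor array alone, which favours a higher direction. No direction is given for Trim15 and Trim40. Trim11, the one Trim neighbour of Trim58 with named probesets, differed by -0.01 over 8. Of these Trim neighbours only Trim26, Trim39 and Trim11 were measured. None of them was lower past the size rule, where 0.563% of all measured genes were. Nearby genes outside the Trim family were not looked at.

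Other nuclear factors of the erythroid programme differed in both directions. Of 15 measured genes in that list, 2 were higher past the size rule, where 1.72% of all measured genes were. None was lower past it, where 0.563% were. Differences of 11 lay below 0, as did 40.9% of those of all measured genes, and the median was -0.20. Gfi1b, the LSD1-recruiting repressor of red cells and megakaryocytes, had levels of 9.93 in the inhibitor array and 8.41 in the DMSO array, and Gata2, a factor of stem and progenitor cells, had 7.98 in the inhibitor array and 6.68 in the DMSO array. Lmo2, the bridge protein of the Tal1 complex, had the lowest difference of the list, -0.78 in 6 of 6 probesets, with levels of 8.27 in the inhibitor array and 9.05 in the DMSO array. Gata1, the main erythroid GATA factor, followed at -0.73 in 9 of 9 probesets, with 6.57 in the inhibitor array and 7.24 in the DMSO array. Neither Lmo2 nor Gata1 reached 2-fold.

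Genes known as Klf1 targets were lower in part. Of 12 genes listed, 10 were measured. Of these, 3 were lower past the size rule, where 0.563% of all measured genes were, and none was higher, where 1.72% were. Differences of 9 lay below 0, as did 40.9% of those of all measured genes, and the median was -0.65. The 9 include Icam4, which is taken up below. The 3 were the membrane genes Epb42, with levels of 3.93 in the inhibitor array and 5.39 in the DMSO array, Kel, with 3.97 in the inhibitor array and 5.37 in the DMSO array, and Slc4a1, with 4.06 in the inhibitor array and 5.47 in the DMSO array. All bright probesets of these 3 genes were lower, 12, 16 and 18 of them. A probeset counted as bright by its higher value, so some may have counted through the DMSO array alone. Such a choice favours a lower direction, and its part in these counts was not tested. Icam4 had levels of 4.23 in the inhibitor array and 4.16 in the DMSO array, a gap opposite in sign to the median of its probeset differences, -1.23. With 5 of its 7 bright probesets lower it missed the rule on direction, and no direction is given for it. Ank1 was at -0.77 over 52 probesets. Alas2, the erythroid enzyme that starts haem synthesis, was at -0.07, and Klf3, a repressor that Klf1 activates, was higher at 0.63 in 15 of 16 probesets without passing the rule.

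The partners and relatives of the other members stayed closer to 0. None of the 8 genes in the NF-E2 list, small Maf genes and relatives of Nfe2, passed the size rule. Over all measured genes 0.563% were lower past it and 1.72% higher, so short lists such as this and the next can easily hold none. Maff was at 0.34, Nfe2l3 at -0.21, Bach1 at 0.19 and Mafk at -0.17. The median of that list, 0.04, was -0.02 relative to the median gene. None of the 7 relatives of Myb, Bcl11a and Ikzf1 passed either, with a median of -0.09. Among them Ikzf2, or Helios, was at -0.49 with 14 of 17 probesets lower, Ikzf3 at -0.41, Ikzf5 at 0.26 and Bcl11b at 0.19.

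**Figure D5:**
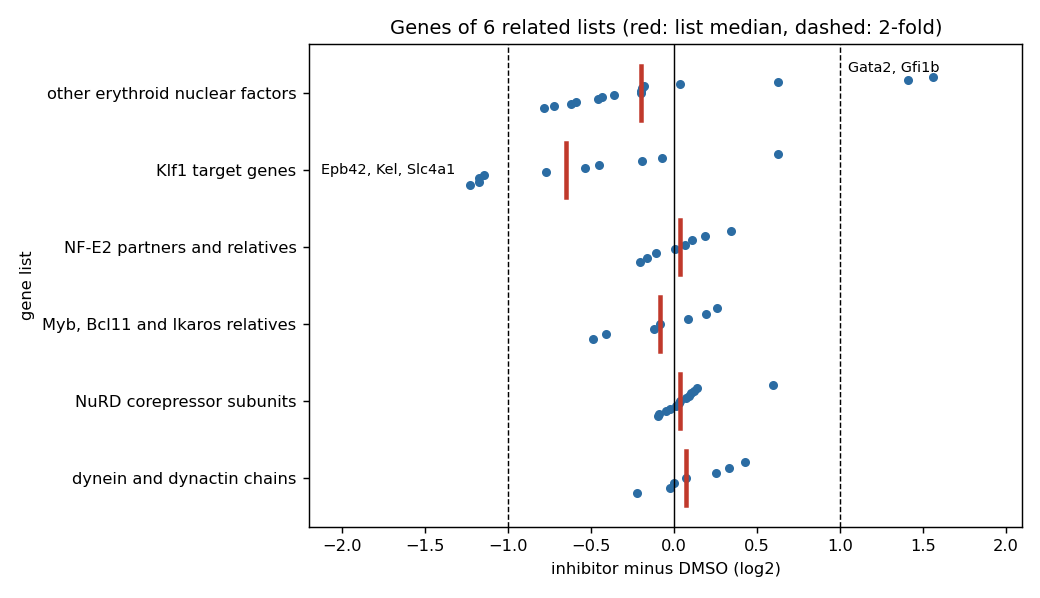
Difference (inhibitor minus DMSO, log2, x axis) of each measured gene in 6 lists of related genes, with list medians as red bars and dashed lines at 2-fold. The median is -0.65 for Klf1 targets and -0.20 for other erythroid nuclear factors, and the genes past the size rule are named.

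The NuRD complex, a corepressor that Bcl11a and Ikzf1 bind, had no subunit gene past the rule among 13 measured. Over all measured genes 0.563% were lower past it and 1.72% higher, so short lists such as this and the next can easily hold none. The helicase gene Chd3 was at 0.60, and the other 12 lay between -0.09 and 0.14, with Gatad2a at 0.14, Mta2 at 0.12 and Mta3 at 0.10. The list median of 0.04 was -0.02 relative to the median gene. None of the 7 dynein and dynactin genes, parts of the motor that Trim58 acts on, passed the rule. Dync1li1 was at 0.43 in 17 of 17 probesets, Dync1i1 at 0.33, Dync1i2 at 0.25 and Dync1li2 at -0.22.

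Markers of 5 cell types were read beside these genes. Over all measured genes 0.563% were lower past the rule, 1.72% were higher past it and 40.9% lay below 0. Of 7 erythroid markers 6 were measured, 4 were lower past the rule and all 6 lay below 0, and their summed linear level was 3497 in the inhibitor array and 10827 in the DMSO array. Globin genes made up most of that sum, and the 3 other markers, Epor, Slc4a1 and Alas2, summed to 171 in the inhibitor array and 301 in the DMSO array. Epor, the erythropoietin receptor gene, was at -1.64, whereas Alas2 was at -0.07 as given above. That list shares members such as Slc4a1 and Alas2 with the Klf1 targets. Of the 7 endothelial markers 3 were higher past the rule and all 7 lay above 0, with a summed linear level of 2324 in the inhibitor array and 582 in the DMSO array. Of 8 megakaryocyte markers 5 were measured, and all 5 lay below 0, with a median of -0.33. Pf4 alone was lower past the rule, and its level of 2.70 in the inhibitor array lay below the table's median. The sort marker gene Itga2b was at -0.12. The summed level of the 5 was 279 in the inhibitor array and 399 in the DMSO array. Of 6 myeloid markers 5 were measured, and 1, Lyz2, was higher past the rule, with a summed level of 276 in the inhibitor array and 218 in the DMSO array. The medians of the myeloid and lymphoid lists were above 0, at 0.17 and 0.46. Levels of the measured lymphoid markers were low, from 3.16 for Dntt to 4.61 for Pax5, both in the DMSO array. Probesets were split for Cd3e (4 higher, 3 lower), Pax5 (4 and 4) and Il7r (3 and 2). They were mostly higher for Ebf1 (12 of 17) and Dntt (5 of 6). None of the 5 measured of 8 lymphoid markers passed the rule, with a summed level of 88.4 in the inhibitor array and 66.6 in the DMSO array. The table gives no detection call, so no marker can be called absent. In bulk RNA fewer cells of a type and less RNA per cell cannot be told apart, and the part of cell composition in the differences of Trim10, Hemgn, Klf1 and the others was not tested.

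With 2 arrays, likeness of pattern reduces to likeness of a pair of levels, and levels of different genes depend on their probes. For each measured member the nearest gene was sought, with clones and predicted genes left out. The measured gene nearest in its pair of levels was Airn for Klf1 (distance 0.12 on the log2 scale), Myh10 for Nfe2 (0.10), Proser2 for Hemgn (0.048), Slc17a1 for Trim10 (0.044), Rdh8 for Bcl11a (0.0046), Zc3h18 for Myb (0.014) and Tspan32 for Ikzf1 (0.050). The differences of these 7 genes ran from -0.63 for Airn to -0.19 for Rdh8. Like the members, these 7 had lower levels in the inhibitor array, so choosing them by levels favours differences below 0. Likeness of levels did not always carry to the difference. Slc17a1 was at -0.21 where Trim10 was at -2.51, and Proser2 at -0.22 where Hemgn was at -1.45. Myh10, at -0.52, was close to Nfe2 at -0.46.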

How the data were processed

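Total RNA of CD41-sorted cells was measured on 2 Affymetrix arrays, grouped by sample title. The authors deposited a single value for each probeset on each array, read from its range of 0.157 to 13.5 as log2 intensity; what the authors did to summarise and normalize it is not given in the sources used here. Its 1048575 rows may be cut at a spreadsheet limit, so a gene may lack probesets. Gene symbols came from the platform annotation, updated through RefSeq synonyms (GRCm38.p6), and 5737 probesets naming several genes were left out.

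The members and lists were chosen with earlier results of these data known. Probesets, genes and the size rule were handled as described in the results, with Python 3.11.15, pandas 2.3.3, numpy 2.4.6 and statsmodels 0.14.6. The scripts were tested on simulated data. The simulation changed only genes with more bright probesets than Klf1 and Nfe2 had and a DMSO level above that of Bcl11a. Its spread over probesets was smaller than that of Trim10 and Hemgn, so it does not cover those genes. Named genes were the 8 members, in each list but the marker lists the 4 genes furthest from 0 and genes past the size rule, and the nearest gene by level. Alas2, Ank1, Klf3 and the Trim neighbours of Trim10 and Trim58, and the few markers named, were named outside that rule after their values were seen. The number of arrays limits the precision. Alternatives changed scaling, probeset filter, summary, probeset number, direction and threshold. Promoters came from RefSeq.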

Additional observations from a re-analysis of the deposited data

How the results depend on the processing

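No paired analysis was possible because each group has 1 array. Of 17 alternatives, 15 kept the 2-fold threshold. Among these, Hemgn and Trim10 were lower past the rule in 14 and Klf1 in 10, and no member was higher past it in any of the 17. Klf1 had too few probesets in 3 of the 5 others, and Hemgn was at -1.29 in its exception, where dim values lifted to the table's median were tied. Members lower past the rule numbered 1, Trim10, at a 3-fold threshold and with dim values lifted to the table's median. Bcl11a was at 0.018 with the filter at the 75th percentile. The cause was not tested. Over all genes, 882 were higher and 402 lower at 1.5-fold, 70 and 18 at 3-fold, 641 and 439 with at least 1 bright probeset, 155 and 44 with at least 8, and 152 and 32 with dim values lifted, against 259 and 85. The table has no background measure, so what dim probesets limit could not be set.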
